A study of Xenopus laevis with 8 samples.

Results

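The 3 POU-V genes of *Xenopus laevis*, Oct-25 (pou5f3.2.L), Oct-60 (pou5f3.3.L) and Oct-91 (pou5f3.1.L), were followed on 8 Affymetrix arrays of neurula RNA. Every probe set listed with one of these genes and no other was taken, which gave 4 probe sets of 32635 and 3 genes of 11303. Oct-25 and Oct-60 have 1 probe set each, designed on the cDNAs BC055964 and BC070557, and Oct-91 has 2, designed on M60077 and BU906860. The suffix .L marks the gene copy on the long chromosome of each pair in this allotetraploid frog. The copies on the short chromosomes are not listed with probe sets, and whether their mRNAs bind the same probes was not tested.

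POU-V proteins are transcription factors with a POU-specific domain and a homeodomain, and they are the frog relatives of mammalian Oct4, the regulator of the pluripotent state. In the frog, Oct-60 mRNA is a maternal store of the oocyte, whereas Oct-25 and Oct-91 are transcribed mainly in the blastula and gastrula. All of them are known to hold back the response of embryonic cells to mesoderm and endoderm inducers. Oct-25 is normally confined to the midline of the neural plate, the notoplate, by the neurula stage.

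Double morphants carried translation-blocking morpholinos against the Suv420 histone methyltransferases h1 and h2, which make the H4K20me2 and H4K20me3 marks on histone H4. Control morphants carried the standard control morpholino of the supplier. Embryos of both kinds were injected on 1 side only, together with a fluorescent tracer, and the injected and the uninjected side of the same embryos were dissected apart, pooled from several embryos and profiled separately. Each of the 4 groups (injected and uninjected sides of double morphants, injected and uninjected sides of control morphants) had 2 arrays, numbered replicate 1 and replicate 2. The labels give a total dose of 40 ng in 2 neighbouring blastomeres, while the supplementary methods describe a single injected blastomere and a higher dose, and the deposited values cannot tell these apart. The morpholinos act on translation, so the array holds no measure of how far the enzymes were depleted. For the gene of the first enzyme, kmt5b.L was at 8.99 and 8.40 on injected and at 8.98 and 8.33 on uninjected sides of double morphants, while kmt5c.L, a gene of the second, was near the lowest value on all 8 arrays.

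The authors summarized the probe sets with GCRMA, and every level below is such a log2 value, of which 1 unit is a 2-fold difference. They run from 2.14 to 15.35, and 31.7% of them lie below 2.5, near the lowest value the method gives. The neural plate gene sox2.L read between 10.75 and 11.61 on the 8 arrays, as a check that the sides hold neurula tissue. The RNA comes from whole sides, so a larger share of cells that express a gene and more mRNA per cell cannot be told apart.

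Oct-25 was high on both arrays of double morphant injected sides. Its values there were 9.98 and 11.10, against 8.0 and 8.17 on the uninjected sides of the same embryos. In control morphants it read 8.48 and 9.75 on injected sides, against 8.06 and 9.20 on uninjected sides. Both injected sides of double morphants therefore lay above the other 6 arrays, the highest of which was the control injected side of replicate 2 at 9.75, just below the lower double morphant value of 9.98. Within embryo pairs the injected side exceeded the uninjected side by 1.99 and 2.93 in double morphants, against 0.42 and 0.55 in control morphants. Replicate 2 was higher than replicate 1 in all 4 groups, by 1.12 on injected and 0.17 on uninjected sides of double morphants, and 1.27 on injected and 1.14 on uninjected sides of control morphants. Such a shift between the replicates was common, since 27.9% of the 8219 genes tested also had replicate 2 above replicate 1 in all 4 groups.

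Oct-60 stood above 5 only on double morphant injected sides. It read 5.66 and 5.23 there, against 3.06 and 2.96 on the uninjected sides of the same embryos. In control morphants it read 3.02 and 4.19 on injected sides, against 2.71 and 2.96 on uninjected sides. The 2 double morphant injected sides again lay above the other 6 arrays, here by more than 1 unit, and the next array was again the control injected side of replicate 2. The pair differences were 2.60 and 2.27 in double morphants, against 0.31 and 1.23 in control morphants. Unlike Oct-25, Oct-60 was higher in replicate 1 on double morphant injected sides. Because its mean passed the filter of 4 log2 units in that group alone, Oct-60 entered the test through the group in which it was high.

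Oct-91 followed another pattern. Its bright probe set (M60077) read 12.633 and 12.155 on injected sides of double morphants, against 12.117 and 11.222 on their uninjected sides, and 12.399 and 12.572 on injected sides of control morphants, against 11.929 and 12.168 on their uninjected sides. Its dim probe set (BU906860) read 5.02 and 3.46 on injected sides of double morphants, against 3.49 and 2.40 on their uninjected sides, and 4.28 and 4.84 on injected sides of control morphants, against 3.62 and 3.57 on their uninjected sides. In both probe sets the injected side was above the uninjected side in all 4 pairs, and the double morphant and control morphant injected sides overlapped. The lowest array of both probe sets was the double morphant uninjected side of replicate 2. The pair differences of the bright probe set were 0.52 and 0.93 in double morphants, against 0.47 and 0.40 in control morphants, and those of the dim probe set were 1.53 and 1.07 in double morphants, against 0.66 and 1.27 in control morphants. The 2 probe sets ran together over the 8 arrays (Pearson r = 0.94), although their levels cannot be compared because probe sets differ in affinity.

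**Figure D1:**
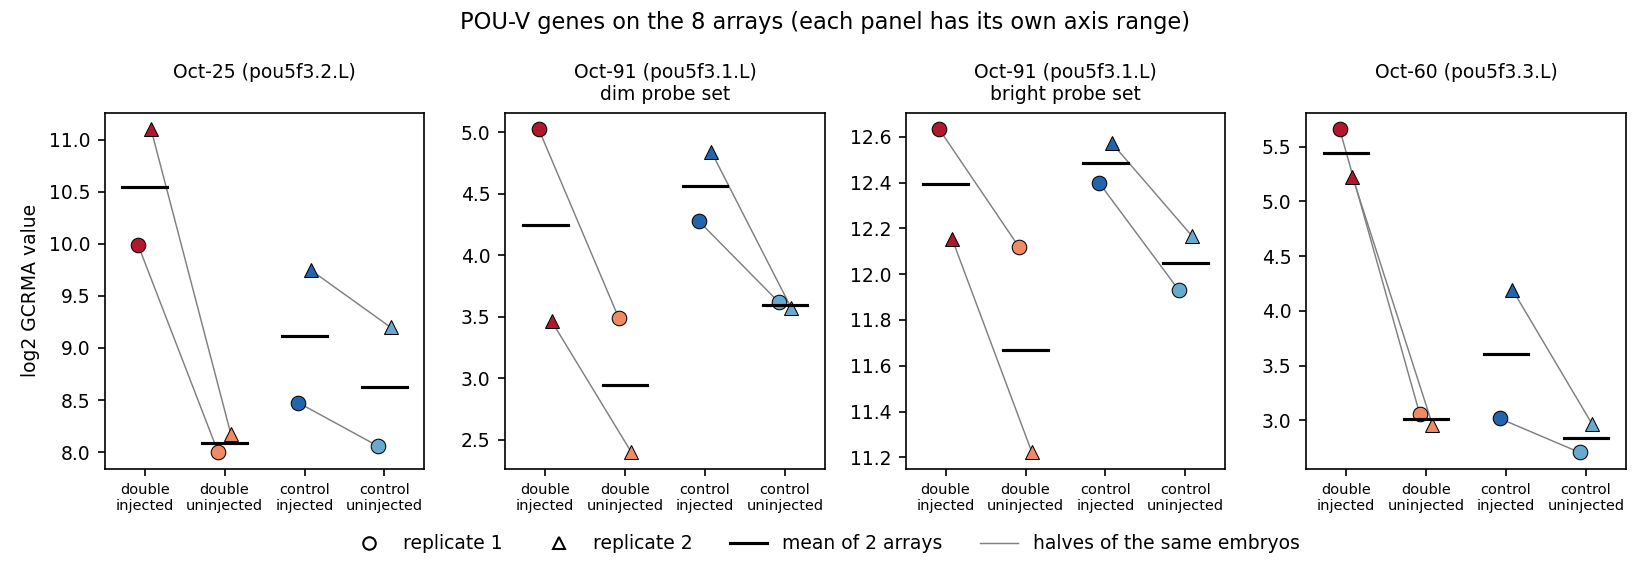
Log2 GCRMA values (vertical axis, with its own range in each panel) of the 4 POU-V probe sets by group, with the 2 arrays of a group as points, the group mean as a bar and lines joining sides of the same embryos. Every line is higher at its injected end, and for Oct-25 and Oct-60 the lines of double morphants (1.99 to 2.93) are longer than those of control morphants (0.31 to 1.23).

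The 3 genes shared the direction of the difference between sides. The injected side was above the uninjected side in all 4 embryo pairs for each of them, as it was for 25.3% of the 8219 genes tested. Both double morphant injected sides were above the 6 other arrays for Oct-25 and Oct-60 and for 12.17% of genes. A rise in all 4 pairs with both double morphant pairs above both control pairs was found for Oct-25 and Oct-60 and for 12.8% of genes. The order of the arrays alone was therefore not rare.

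The first comparison asked how the injected side of double morphants differed from the uninjected side of the same embryos. Oct-25 averaged 10.54 ± 0.79 on injected and 8.08 ± 0.12 on uninjected sides (SD, n = 2 each), a log2 difference of 2.46 (SE 0.60, 95% interval 0.99 to 3.93) or 5.5-fold. This was the 5th largest increase among all genes tested. Oct-60 averaged 5.44 ± 0.31 on injected and 3.01 ± 0.07 on uninjected sides (SD, n = 2 each), a log2 difference of 2.43 (SE 0.39, 95% interval 1.47 to 3.40). No fold or rank is given for Oct-60, because its uninjected values lay below the filter of 4 and were not shown to be above background.

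A gene was called when its local fdr, the estimated share of unchanged genes among genes with such a statistic, was under 0.2, the threshold of the study. By this rule Oct-60 was called as higher (local fdr 0.121), and Oct-25 did not pass (local fdr 0.629). Of all genes 1.63% were called, 0.633% as higher and 0.998% as lower. Since Oct-60 was tested only because it was high on these injected sides, its call is given as a description and the 1 of 3 genes called is not set against these shares. The Benjamini-Hochberg adjusted p-values of limma were 0.0846 for Oct-60 and 0.114 for Oct-25, and no gene of the 8219 passed 0.05 by that measure, while 1745 genes (21.2%) had an unadjusted p under 0.05. For Oct-91 the difference was 1.3 (SE 0.59, 95% interval -0.13 to 2.73) in the dim probe set, which stood for the gene because it varied most, and 0.72 (SE 0.33) in the bright one, and neither was called. The dim probe set passed the filter of 4 only through injected sides, of both morphants, where it was high. Its differences between sides, here and in control morphants, are therefore descriptions, while the bright probe set passed in all 4 groups. The null distribution fitted to the statistics was wider in double morphants (SD 1.72) than in control morphants (SD 0.866), so that the same statistic passed less readily in double morphants.

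Taking account of the shared embryos changed which POU-V genes passed, and in a different way for each threshold. With each embryo pair as a block, the limma adjusted p was 0.0180 for both Oct-25 and Oct-60 and 0.0229 for Oct-91, so that all 3 genes passed 0.05, but so did 28% of all genes (15.5% as higher). Of the 3, Oct-60 and the dim Oct-91 probe set had entered the test only through groups in which they were high. With the replicate number as a block, it was 0.0168 for Oct-25, 0.0202 for Oct-60 and 0.116 for Oct-91, and 22.6% of all genes passed. By local fdr none of the 3 genes was called with either block, where 1.13% of all genes were with the embryo pair and 0.268% with the replicate number. The values for Oct-60 were 0.451 with the embryo pair and 0.985 with the replicate number, and those for Oct-25 were 0.401 and 0.801. Leaving out single arrays kept the Oct-60 difference between 2.22 and 2.65, and its call was lost without double morphant injected replicate 1 (local fdr 1), uninjected replicate 1 (0.267) or uninjected replicate 2 (0.533).

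In control morphants none of the 3 genes was called between sides, where 4.02% of all genes were. Oct-25 differed by 0.48 (95% interval -0.99 to 1.96), from means of 9.11 ± 0.90 on injected and 8.63 ± 0.81 on uninjected sides (SD, n = 2 each). Oct-60 differed by 0.77 (95% interval -0.19 to 1.73), from means of 3.61 ± 0.83 on injected and 2.83 ± 0.18 on uninjected sides. Oct-91 differed by 0.97 (95% interval -0.47 to 2.40) in the dim and by 0.44 in the bright probe set. These intervals, from the fit without a block, include both no difference and increases of more than 1 unit. With the embryo pair as a block they were -0.18 to 1.15 for Oct-25 and 0.09 to 1.45 for Oct-60. For the dim Oct-91 probe set, which passed the filter only through injected sides, the interval was 0.41 to 1.52. The limma adjusted p-values in that fit were 0.368, 0.244 and 0.159 in the same order, and none of the 3 genes was called. Both control pairs gave about the same Oct-25 difference (0.42 and 0.55). The fitted value was -0.15 without control injected replicate 2 and -0.09 without control uninjected replicate 1, fits in which the remaining sides were no longer paired while replicate 2 was higher on both control sides. For Oct-60 the difference was 1.36 when control injected replicate 1 was left out, which left a single array in that group.

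Whether injection raised the genes more in double than in control morphants was tested as the difference of the 2 effects. None of the 3 genes passed, where 3.18% of all genes did. Oct-25 had a difference of the effects of 1.97 (SE 0.85, 95% interval -0.11 to 4.06, local fdr 0.626), the 12th highest of all genes. Oct-60 had 1.66 (SE 0.56, 95% interval 0.30 to 3.02, local fdr 0.299), and Oct-91 had 0.34 (95% interval -1.69 to 2.36) in the dim and 0.29 in the bright probe set. Embryo pairs as a block lowered the SE to 0.35 for Oct-25 and 0.36 for Oct-60, with adjusted p-values from limma of 0.118 and 0.129. Without control injected replicate 2, the highest control array of both genes, the Oct-60 value was 2.25. That fit left a single array in the group, so no call is given. Oct-60 had entered the test only through double morphant injected sides, where it was high.

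Between morphants, Oct-60 was called on injected sides, the group through which it entered the test, and none of the 3 genes was called on uninjected sides. On injected sides Oct-60 was 1.84 higher in double than in control morphants (SE 0.39, 95% interval 0.88 to 2.80, limma adjusted p 0.0921, local fdr 0.0900), where 5.58% of all genes were called, 2.4% as higher. This call was lost with the replicate number as a block (local fdr 0.714, where 2.73% of all genes were called) and without either double morphant injected array (local fdr 0.353 without replicate 1 and 0.410 without replicate 2). Oct-25 was 1.43 higher (SE 0.60, 95% interval -0.04 to 2.90), which was not called. In the fit blocked on the replicate number the limma adjusted p was 0.0310 for Oct-25 and 0.0332 for Oct-60. In that fit 15.4% of all genes had an adjusted p under 0.05, and by local fdr neither Oct-25 (0.684) nor Oct-60 was called. Oct-91 differed by -0.31 in the dim and -0.09 in the bright probe set. On uninjected sides, where 2.47% of all genes were called, the differences were -0.54 for Oct-25, -0.65 for Oct-91 and 0.18 for Oct-60. All 5 comparisons use the same 8 arrays and are not independent of each other.

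**Figure D2:**
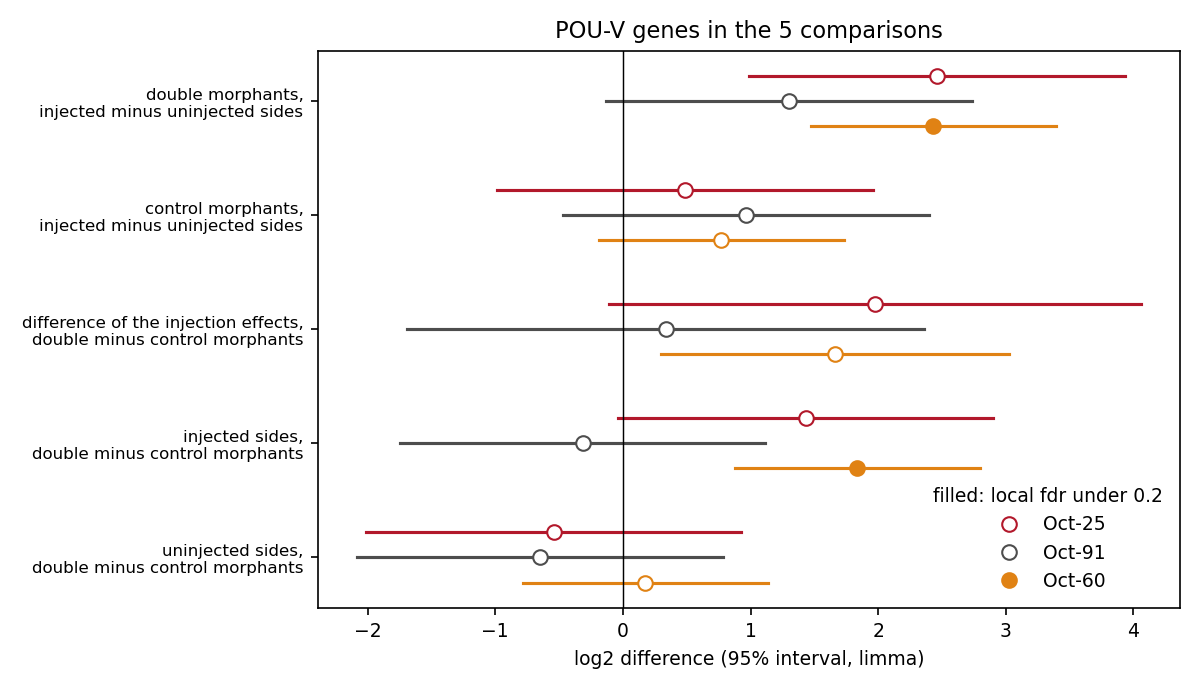
Log2 differences (horizontal axis) of the 3 POU-V genes in the 5 comparisons, with 95% intervals of limma; filled points have a local fdr under 0.2. Only Oct-60 is filled, in the comparison of sides within double morphants (2.43) and in the comparison of injected sides (1.84), and the Oct-91 intervals include 0 in all 5 comparisons.

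Oct-25 and Oct-60 resembled each other more than either resembled Oct-91. Over the 8 arrays, which come from 4 pools of embryos and so are not independent, Pearson r was 0.87 between Oct-25 and Oct-60, 0.39 between Oct-25 and the dim Oct-91 probe set, and 0.53 between Oct-60 and that probe set. With the bright Oct-91 probe set r was 0.48 for Oct-25 and 0.53 for Oct-60. These values describe 4 probe sets on the same arrays and were not tested.

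The genes most like each member differed between the 3. Closest to Oct-25 were spag7.L, tbcb.L (a tubulin folding cofactor), ap1m1.S (a subunit of the clathrin adaptor AP-1), cenps.L (a centromere protein) and gtf2i.S (a transcription factor), all at r of 0.99. Closest to Oct-60 were slc25a46.S (a mitochondrial carrier protein, r = 1.00), vat1.S, pabpn1l.L, bckdhb.S (a subunit of the branched-chain keto acid dehydrogenase) and MGC83062, the last 4 with r between 0.98 and 0.99. Of these, pabpn1l.L, which encodes a poly(A)-binding protein of the early embryo in frogs, read 4.64 and 4.51 on injected and 3.3 and 3.26 on uninjected sides of double morphants (1.29), against 3.53 and 3.86 on injected and 3.21 on both uninjected sides of control morphants. It was chosen for its likeness to Oct-60 and passed the filter of 4 only in the group where it was high, so that its difference is given without a test. Closest to Oct-91 were washc1.L, intu.S, mbd1.L, ccdc134.L and laptm4a.L, with r between 0.95 and 0.96. With 8 arrays such likeness was frequent, since r was over 0.9 for 349 genes with Oct-25, 218 with Oct-60 and 49 with Oct-91.

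**Figure D3:**
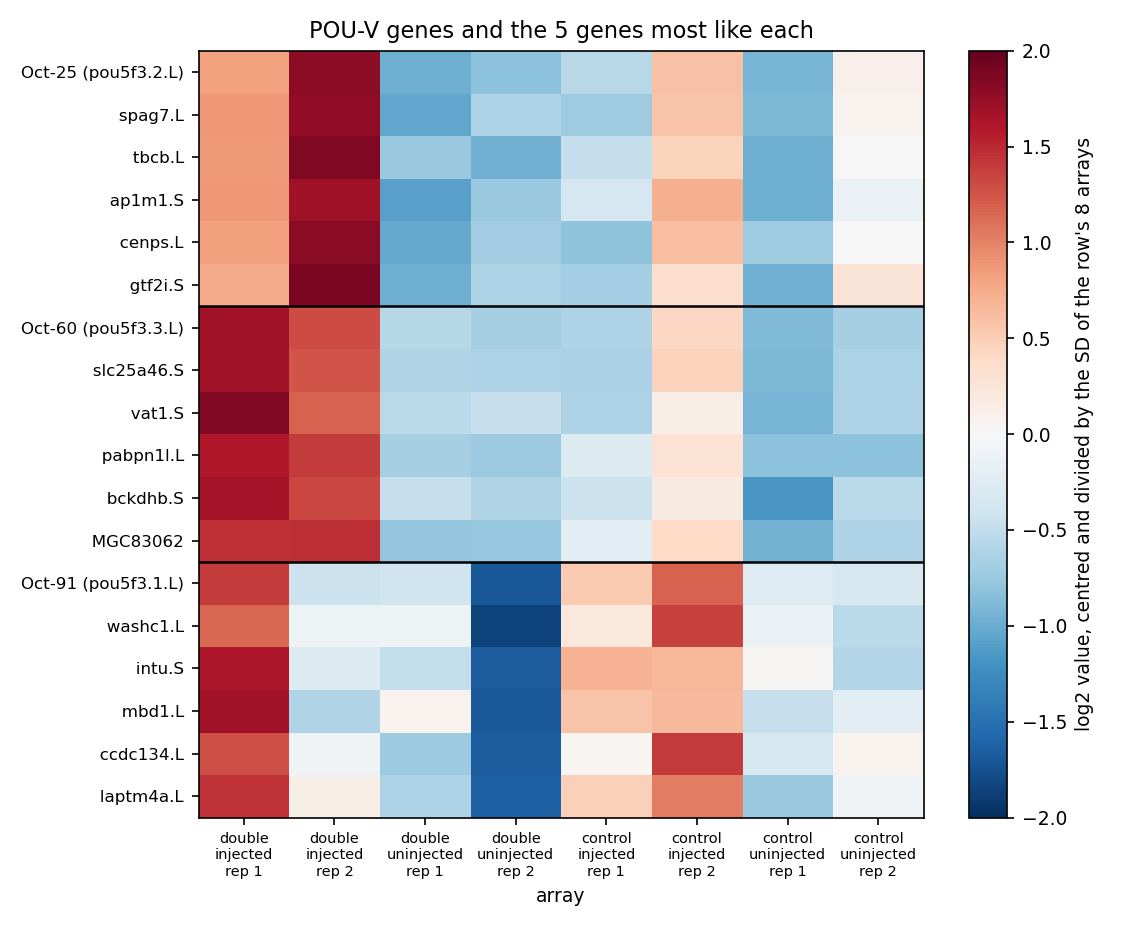
Log2 values of the 3 POU-V genes and the 5 genes most like each (rows) on the 8 arrays (columns), centred and divided by the SD of the row. The Oct-25 block is darkest on double morphant injected replicate 2 and the Oct-60 block on both double morphant injected arrays, while the Oct-91 block is lowest on double morphant uninjected replicate 2.

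The 3 genes lie side by side. In the gene order of RefSeq assembly Xenopus_laevis_v10.1 they follow each other as Oct-60, Oct-25 and Oct-91, between fut7.L and npdc1.1.L. Of the 15 protein-coding genes on each side of the cluster, 12 had a probe set and 9 were tested. None of the 9 was called in any of the 5 comparisons, where 1.63% to 5.58% of all genes were. At such shares the absence of calls does not set 9 genes apart from other genes. Between sides of double morphants they ranged from -0.70 (coq4.L) to 0.43 (tesk1.L) with a median of 0.08, and the nearest one measured, npdc1.1.L, was at -0.02. The 3 POU-V genes, at 1.3 to 2.46 in that comparison, stood above all of these neighbours. Oct-60 and the dim Oct-91 probe set were tested only through groups in which they were high. The bright Oct-91 probe set, which passed the filter in every group, was at 0.72.

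None of the 5 other POU genes tested was called between sides of double morphants, where 1.63% of all genes were. Of 9 on the array, 4 were near the lowest value on all arrays (pou3f3.S, pou3f4.L, pou3f4.S and pou4f1.L) and 5 were tested. Their median difference between sides of double morphants was -0.72, against 0.03 over all genes. The neural POU gene pou3f1.L read 6.71 and 4.68 on injected and 7.40 and 7.5 on uninjected sides (-1.75), and pou2f1.S, which encodes the widely expressed Oct-1, was 0.50 higher on injected sides. In control morphants the median of the 5 was -0.49. There pou3f1.L read 7.21 and 4.96 on injected and 7.41 and 6.52 on uninjected sides (-0.88), and pou2f1.S was 0.18 higher on injected sides.

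Of the partners of POU-V factors and genes of the pluripotency network, 29 were tested and 1 was called between sides of double morphants, as lower, where 0.998% of all genes were (median -0.05). This was tfcp2l1.L, the frog copy of a factor that supports the naive pluripotent state of mouse stem cells, which read 7.95 and 7.97 on injected and 9.11 and 9.10 on uninjected sides (-1.14, local fdr 0.0125). In control morphants it read 8.42 and 8.65 on injected and 8.78 and 8.66 on uninjected sides, and the difference of the effects was also called (-0.95, local fdr 0.00626). The other copy, tfcp2l1.S, was at -0.18 in double morphants.

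The largest increase of this list was in tdgf1.3.L, which encodes a co-receptor of Nodal ligands and did not pass the test. It read 8.79 and 9.70 on injected and 5.88 and 6.27 on uninjected sides of double morphants, a difference of 3.17 (SE 0.78, local fdr 0.641). In control morphants it read 6.73 and 8.30 on injected and 5.60 and 7.54 on uninjected sides, a difference of 0.95. Like Oct-25, it was higher in replicate 2 in all 4 groups. The largest decreases of the list were in foxd3.L (-2.50, local fdr 0.645) and mycn.S (-2.49, local fdr 0.201), neither of them called. In control morphants foxd3.L was at -1.40 and not called, and mycn.S was at -1.48 and called (local fdr 0.0258). The ventral homeobox genes of the ventx family, which act with POU-V factors in the frog, gave differences of 0.30 for ventx2.1.L, 0.32 for ventx2.1.S, 0.98 for ventx1.2.S, 0.49 for ventx1.1.S and -0.32 for ventx1.1.L. None of these was called. The SoxB1 partners, which bind DNA next to Oct4 in mammals, gave -0.05 for sox2.L, -0.23 for sox3.L and -0.03 for sox3.S.

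Among germ layer genes that POU-V factors are known to oppose, 2 of 30 tested were called as higher on injected sides of double morphants, where 0.633% of all genes were. None was called as lower, and the median was 0.21 in double and 0.17 in control morphants. The T-box gene vegt.L, a maternal inducer of endoderm and mesoderm, read 11.05 and 10.88 on injected and 9.23 and 9.12 on uninjected sides of double morphants (1.79, local fdr 0.0387). In control morphants it read 9.85 and 10.04 on injected and 9.28 and 9.96 on uninjected sides (0.33), and the difference of the effects was called (1.46, local fdr 0.0211). The ventral mesoderm signal wnt8a.L rose by 1.17 in double morphants and was also called in control morphants, at 0.65, and its difference of the effects was not (0.53, local fdr 0.604). For vegt.S, which was higher in replicate 2 in all 4 groups, the difference between sides of double morphants was 1.32 and was not called.

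A list of neural plate and neuronal genes held those that the study followed and relatives of them. Of these, 25 were tested, and 2 were called as higher and 1 as lower between sides of double morphants, where 0.633% and 0.998% of all genes were (median -0.12, against -0.24 in control morphants). The study named Xiro1 and N-tubulin, and it named neither irx2 nor tubb3, which are among the called genes. It did name Zic1, and reported it as reduced in double morphants. That was seen by in situ hybridization at midgastrula and by qRT-PCR in animal cap explants, while the arrays here hold whole neurula sides. The neural plate genes zic1.S and irx2.L were both higher by 1.07. With the brightest probe set of each gene, the zic1.S difference was 0.74 and no longer called (local fdr 0.459). The values of zic1.S were 11.70 and 11.75 on injected and 10.76 and 10.55 on uninjected sides of double morphants, and 11.33 and 11.47 on injected and 10.94 and 11.20 on uninjected sides of control morphants. The difference of the effects was not called for zic1.S (0.74, local fdr 0.302) and was called for irx2.L (0.82, local fdr 0.137). The gene called as lower was tubb3.L, a neuronal tubulin, at 2.40 and 2.24 on injected and 4.10 and 4.63 on uninjected sides of double morphants, with control morphants between 2.22 and 2.82 on both sides. This gene passed the filter of 4 only through the uninjected sides of double morphants, the group in which it was high, so its calls there, including that against uninjected sides of control morphants (1.84), are descriptions. The other neuronal tubulin of the list, tubb2b.S, was at -1.20 without passing the test. The genes irx1.L, irx1.S, gmnn.L and gmnn.S were at 0.53, 0.33, 0.39 and 0.83, also not called. In control morphants 0 of the 25 were called as higher and 3 as lower, where 0.9% and 3.11% of all genes were. These 3 were rax.L (-1.48), pax6.L (-0.54) and otx2.S (-0.45). In double morphants they were at -1.58, -0.44 and -0.17 and were not called. With the replicate number as a block only rax.L kept its call in control morphants (local fdr 0.114). With the brightest probe set of each gene, pax6.L lost its call there (-0.34, local fdr 0.456) and rax.S gained one (-0.84, local fdr 0.157).

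When the replicate number was blocked, none of the list genes named here was called between sides of double morphants by local fdr. The calls on the difference of the effects were also lost, with a local fdr of 0.383 for tfcp2l1.L, 0.670 for vegt.L, 0.453 for irx2.L and 0.418 for rtn3.L, a marker of germ plasm, as was the wnt8a.L call in control morphants (0.416). The same block added a call there for gs17.L, a gene expressed before the neurula stage. Its difference of the effects was 1.31 (local fdr 0.0167, against 0.904 without the block), where 0.73% of all genes were called with the block. The median of the 12 genes used as references was -0.15 in double morphants, with odc1.L at 0.30, gapdh.L at -0.28 and gapdh.S at -0.62. Without a block 0 of the 12 were called there, where 1.63% of all genes were. In control morphants 1 of the 12 was called, as lower, where 3.11% of all genes were. With the brightest probe sets, 1 of the 12, hprt1.L, was called as lower in double morphants (-1.52, local fdr 0.0355). The share of all genes called with that setting is not given here.

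Of the genes that are expressed before the neurula stage, 1 of 18 tested was called between sides of double morphants. This was vegt.L, called as higher, where 0.633% of all genes were. The median was 0.83 in double and 0.17 in control morphants, and 16 of 18 differences were above 0 in double and 15 of 18 in control morphants. Over all genes tested, 52.8% of differences were above 0 in double and 56.9% in control morphants. The mean log2 value of all 27 genes of the list was 5.77 and 5.88 on injected and 5.35 and 5.19 on uninjected sides of double morphants, against 5.5 and 5.94 on injected and 5.38 and 5.67 on uninjected sides of control morphants. Of the 27, 6 were near the lowest value on all arrays (btg4.L, btg4.S, nodal6.L, nodal6.S, sia1.L and sia2.S). The part of these genes in the POU-V values was not tested.

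Markers of germ plasm and oocytes, the tissue of maternal Oct-60, gave a median of 0.40 in double and -0.28 in control morphants over 12 genes tested. None was called between sides of double morphants, where 1.63% of all genes were, and 1 of 12, rtn3.L, was called in the difference of the effects (0.92, local fdr 0.0248), where 3.18% were. All 12 were above 0 in the difference of the effects (median 0.83), as were 51.6% of all genes (median 0.02). On injected sides, double minus control morphants, 10 of 12 were above 0 (median 0.53), as were 49.2% of all genes. There rtn3.L was also called (0.88, local fdr 0.0172), where 5.58% of all genes were. The germ line gene dazl.L read 5.83 and 7.72 on injected and 7.53 and 6.25 on uninjected sides of double morphants, with no order between the sides. The list mean was 7.03 and 7.70 on injected and 7.05 and 6.79 on uninjected sides of double morphants, against 6.43 and 7.22 on injected and 6.91 and 7.40 on uninjected sides of control morphants. Of the 13 markers, figla.L was near the lowest value on all arrays. Their part in the Oct-60 values was not tested.

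Both injected arrays of replicate 2 were low in most muscle markers and in some midline markers, whichever morpholino was used. The mean log2 value of the 12 muscle and somite markers was 7.55 on the double morphant and 7.02 on the control morphant injected side of replicate 2, and 9.22 to 9.65 on the other 6 arrays. That of the 13 notoplate and notochord markers was 7.13 and 6.64 there, and 7.70 to 7.89 on the other 6. The midline signal shh.L, made in the notoplate where Oct-25 is normally expressed, read 9.69 and 7.11 on injected and 9.70 and 9.44 on uninjected sides of double morphants, against 8.71 and 2.76 on injected and 9.0 and 9.40 on uninjected sides of control morphants. Like shh.L, col2a1.L (5.34 and 5.0) and not.S (5.62 and 4.3) had their lowest values on these double and control morphant arrays. The notochord genes tbxt.L (10.92 and 10.80) and tbxt.S (10.93 and 10.60), foxj1.L (7.28 and 7.49) and foxa1.S (9.15 and 9.03) were not below the range of the other 6 arrays there. The notoplate gene foxa2.L was between 5.05 and 6.70 on all arrays. Muscle markers had a median difference between sides of -1.35 in double and -1.18 in control morphants, and notoplate and notochord markers of 0.01 and -0.09. In double morphants 0 of 11 were called in each list, where 1.63% of all genes were.

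Oct-25 was higher on these 2 arrays than on the other array of their groups. Both of them were also left out, a choice made after seeing the data. Each injected group was then a single array whose spread is taken from the other groups. The differences between sides of double morphants were then 1.90 for Oct-25, 2.65 for Oct-60 and 2.08 for Oct-91. The difference of the effects was 2.05 for Oct-25, 2.47 for Oct-60 and 1.40 for Oct-91. In control morphants the Oct-25 difference was -0.15. No calls are given from this fit, because of the single arrays. Oct-60 and the dim Oct-91 probe set had entered the test only through groups in which they were high. The part of these markers in the POU-V values was not tested. Epidermis and endoderm markers had medians of -0.04 and 0.04 between sides of double morphants. Of 16 epidermis markers tested 1 was called, as lower, where 0.998% of all genes were. This was krt12.2.S, an epidermal keratin, at -1.86 in double and 0.46 in control morphants. Of 14 endoderm markers 0 were called.

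**Figure D4:**
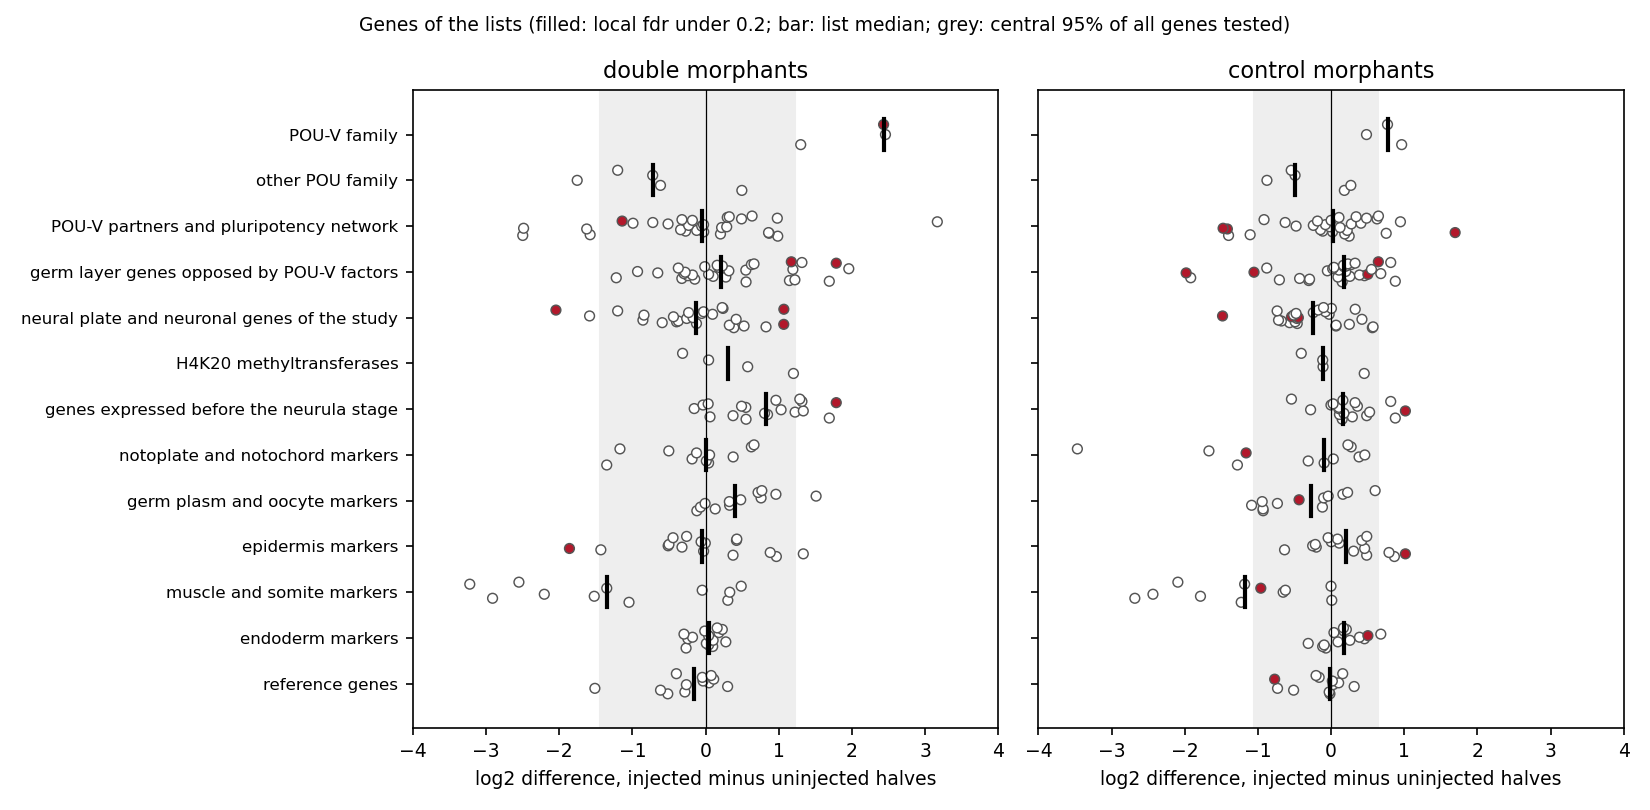
Log2 differences between injected and uninjected sides (horizontal axis) of every tested gene in 13 lists (rows), in double morphants (left) and control morphants (right); filled points have a local fdr under 0.2, black bars are list medians and the grey band holds the central 95% of all genes. The POU-V genes lie at 1.3 to 2.46 in double morphants and at 0.48 to 0.97 in control morphants, and muscle markers lie low in both.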

How the data were processed

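The deposited values are log2 expression values that the authors computed with GCRMA (version not given in the sources used here) from 8 Affymetrix arrays, 32635 probe sets each. The study's filter on present calls needs probe-level data. In its place a probe set had to average 4 or more on the log2 scale in 1 or more groups. Of probe sets listed with 1 gene (15505), those with a variance above 0 were used, and the most variable one was kept per gene, which left 8219 genes. limma 3.58.1 in R 4.3.3 fitted the 4 group means without a block (4 residual and 2.08 prior degrees of freedom). Calls were made at a local fdr under 0.2, after the study's methods, by a rewritten fit of the empirical null (120 bins, spline of 7 degrees of freedom). This fit was run on simulated data whose errors were independent between arrays, without replicate or embryo pair effects. The simulation therefore cannot tell how often calls are false in these data. Adjusted p-values (Benjamini-Hochberg) run over all genes.

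The supplementary methods describe sides of the same embryos, pooled, in 2 independent experiments, so the replicate number was read as the experiment. Deviations from the group means correlated between same-numbered arrays by 0.50 to 0.80 over the 6 pairs of groups, and the replicate number and the embryo pair were run as blocks. Other alternatives were the threshold, z values, the filter, the probe set, quantile normalization, the groups in the fit and leaving out arrays. The p-values rest on the spread between the 2 pools of a group, taken over all groups of the fit and drawn toward a value shared by all genes. Without a block this spread includes the shift between the replicates. With a block, what the arrays of a block share is taken out first. The number of arrays limits the precision.

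Genes named are the POU-V genes, the 5 genes most correlated with each, genes of the POU, partner, germ layer and neural lists called in double morphants or in the difference of the effects, a set named whatever their values, and up to 3 called genes of other lists. The neighbouring genes, pou2f1.S, pou3f1.L, foxd3.L, mycn.S, rax.L, pax6.L and otx2.S were added after their values were seen. The members, lists and tests were chosen with earlier results of these data known.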

Additional observations from a re-analysis of the deposited data

How the results depend on the processing

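The differences of Oct-25 and Oct-60 between sides of double morphants kept their direction under all alternatives run, and what changed was the call. Oct-60 between sides of double morphants (2.43) was not called at an adjusted p under 0.05, with statistics converted to z values, with the replicate block or with the embryo pair block, and the same holds for injected sides of double against control morphants (1.84) at an adjusted p under 0.05, with z values, with the replicate block, and with only the 2 groups compared in the fit. The Oct-60 difference of the effects was called with no filter on low values (1.66), a setting in which 1183 genes were called. It was 2.47 with both injected arrays of replicate 2 left out. That alternative was chosen after seeing the data and left a single array in each injected group. Oct-25 between sides of double morphants was called with only the 2 groups compared (2.46, local fdr 0.137) and, at an adjusted p under 0.05, with either block (2.46), as was Oct-25 on injected sides with the replicate block (1.43) and Oct-91 between sides of double morphants with the embryo pair block (1.3). These combinations of block and threshold were also chosen after seeing the data. Oct-91 between sides of control morphants was called with only the 2 groups compared (0.97, local fdr 0.0649). Both of these Oct-91 calls are of the dim probe set, which passed the filter only through injected sides. The share of all genes called with only the 2 groups in the fit is not given here. Calls from those fits are therefore descriptions. With both injected arrays of replicate 2 left out, Oct-25 in control morphants turned to -0.15 and Oct-91 on injected sides to 0.75. The Oct-60 calls lost with the blocks are those by local fdr. At a limma adjusted p under 0.05, Oct-60 passed with either block between sides of double morphants and with the replicate block on injected sides (0.0332). Of all genes 28% passed between those sides with the embryo pair block and 22.6% with the replicate block. On injected sides 15.4% passed with the replicate block. Oct-60 had entered the test only through double morphant injected sides, where it was high. The blocks changed no other call of the 3 genes. The causes were not tested.

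Leaving out each array in turn gave, between sides of double morphants, 1.90 to 3.02 for Oct-25, 0.52 to 2.08 for Oct-91 and 2.22 to 2.65 for Oct-60, the last called in 5 of 8 fits. In control morphants the ranges were -0.15 to 1.12, 0.68 to 1.25 and 0.18 to 1.36, for the difference of the effects 1.34 to 2.61, -0.44 to 1.12 and 1.07 to 2.25, for injected sides 0.80 to 2.07, -1.09 to 0.47 and 1.25 to 2.43, and for uninjected sides -1.11 to 0.026, -1.20 to -0.10 and 0.05 to 0.30, in the same order of genes. The Oct-91 difference of the effects was -0.44 without double morphant injected replicate 1 and -0.21 without double morphant uninjected replicate 2, and Oct-91 on injected sides was 0.47 without double morphant injected replicate 2. Oct-25 was -0.15 in control morphants without control injected replicate 2, -0.09 without control uninjected replicate 1, and 0.026 on uninjected sides without control uninjected replicate 2. The brightest probe set, every probe set and quantile normalization changed no call of the 3 genes. The number of genes called was 134 between sides of double morphants and 0 to 2300 under the alternatives, 330 (0 to 886) in control morphants, 261 (0 to 1183) in the difference, 459 (0 to 1539) on injected and 203 (0 to 719) on uninjected sides. It was 22 with the replicate block and 1024 with no filter between sides of double morphants.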
